A study of Homo sapiens with 8 samples.

Results

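The 9 enzymes described here carry out or feed fatty acid oxidation. They are ACOX2, CPT1A, CPT2, ACADVL, ACADL, ACADM, HADHA, HADHB and ECHS1, and they were taken by symbol out of the 19056 genes that the arrays named. Each had exactly 1 probe, matched through the transcript accession that the scanner software lists. The probes of 8 of the 9 were well above background, by the scanner software's own call, on all 8 arrays. The probe of ACADL, the long-chain acyl-CoA dehydrogenase, was not well above background on any array, so no ratio is given for it.

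The cells were A549, an established human lung carcinoma line, and the study asked which expression changes an extract of Descurainia sophia seeds and its cardiac glycoside helveticoside bring about in them. In one series the cells received the vehicle or the ethanol extract of the seeds (EEDS) at 1.25, 5 or 20 µg/mL, and in the other the vehicle or helveticoside at 3.75, 15 or 60 nM. For each condition the RNA of 3 cultures was combined and read on 1 single-dye array, which gave 8 arrays and no replicates of a dose. The sample labels put the exposure at 48 h, which differs from the 24 h of the methods text.

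Long-chain fatty acids enter mitochondria as carnitine esters. CPT1A makes the acylcarnitine at the outer membrane and is the step that malonyl-CoA inhibits, and CPT2 turns it back into acyl-CoA at the inner membrane. Each round of beta-oxidation then has a dehydrogenation, a hydration, a second dehydrogenation and a thiolytic cleavage. The acyl-CoA dehydrogenases ACADVL, ACADL and ACADM do the first step on very long, long and medium chains. HADHA and HADHB are the alpha and beta subunits of the mitochondrial trifunctional protein, which does the remaining steps on long chains, and ECHS1 hydrates short enoyl-CoAs. ACOX2 works in a different organelle, as the peroxisomal oxidase of branched-chain acyl-CoAs and of the side chain of the bile acid intermediates.

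On the arrays, 56.9% to 66.9% of probe spots were well above background, and no probe spot was saturated. All 10 epithelial markers fixed for A549 cells were well above background on every array. Their summed signal was 1.57e+06, 1.54e+06, 1.26e+06 and 1.27e+06 over the EEDS series. Over the helveticoside series it was 1.48e+06, 1.46e+06, 1.21e+06 and 1.05e+06. From control to top dose, CDH1 went from 963 to 148 with EEDS and from 825 to 126 with helveticoside. KRT7 went the other way, from 383250 to 587250 and from 329250 to 474625. Of the markers of other cells, 1 of 4 endothelial (CDH5), 1 or 2 of 5 fibroblast (COL1A1 on every array) and 2 to 4 of 5 leukocyte genes reached that call, while CD3E, PECAM1 and VWF did not. The summed leukocyte signal, most of it CD14, was 3042, 3443, 840 and 1201 over the EEDS series and 2788, 3747, 1273 and 839 over the helveticoside series. It was lower at the middle and top doses than in the controls. The summed fibroblast signal, most of it COL1A1, was 363, 425, 310 and 628 over the EEDS series and 289, 434, 298 and 421 over the helveticoside series, and was thus higher than the control at both top doses. The part of these marker signals in the results below was not tested. In RNA pooled from whole cultures, fewer cells and less RNA per cell cannot be told apart.

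ACOX2 had the lowest top-dose ratio of the members with both agents. Its normalized signal, in the arbitrary units of the quantile-normalized arrays, was 1552 on the EEDS control and 1159, 202 and 112 at 1.25, 5 and 20 µg/mL. On the helveticoside arrays it was 1432 for the control and 1627, 366 and 62.1 at 3.75, 15 and 60 nM. The low doses lay within 0.42 of their controls on the log2 scale, and the middle and top doses lay below both controls and both low doses. Against its own control the signal was 7.67-fold lower at 5 µg/mL and 13.9-fold lower at 20 µg/mL EEDS, and 3.92-fold lower at 15 nM and 23.1-fold lower at 60 nM helveticoside. Of all 19046 genes tested, 73 had a lower ratio than ACOX2 at 20 µg/mL EEDS and 28 at 60 nM helveticoside.

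The ACOX2 probe was printed in 10 spots per array, which shows the technical spread within an array but not the spread between cultures. At 20 µg/mL EEDS the 10 spots gave normalized log2 ratios between -4.03 and -3.49 (SD 0.16), and at 15 nM helveticoside between -2.04 and -1.89 (SD 0.06). At 60 nM the spots were wider apart, from -5.58 to -4.21 (SD 0.40), and 7 of the 10 were well above background. The 60 nM ratio was therefore read close to background, and other settings put it between -4.64 and -2.86, the last from the processed values that the authors deposited. Before normalization, all 10 spots were also lower than the control at both upper doses of either agent.

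**Figure D1:**
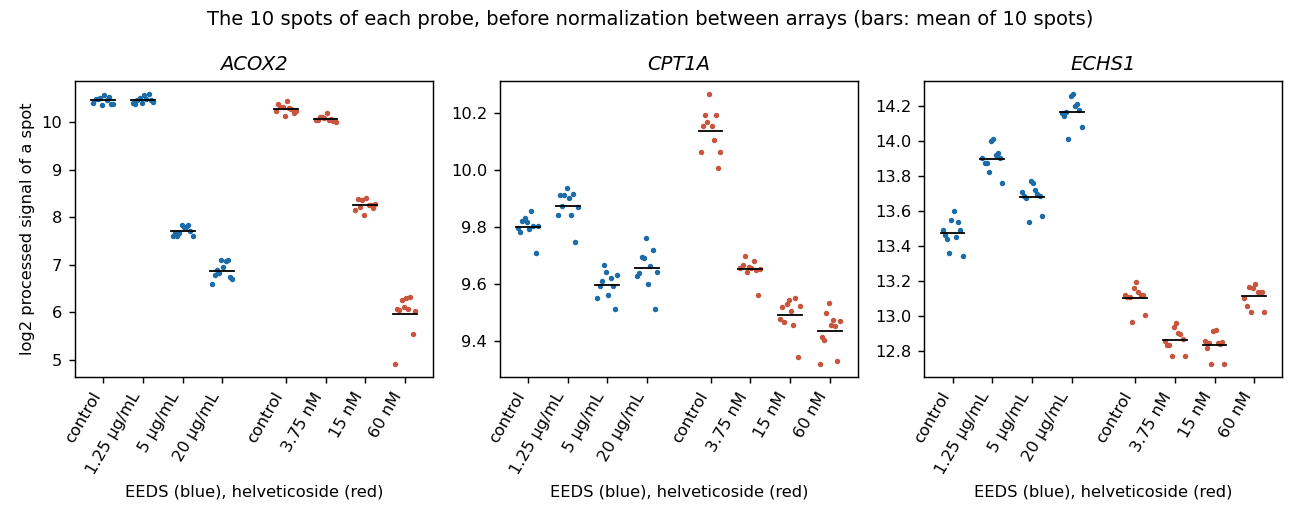
The log2 processed signal of each of the 10 spots of the ACOX2, CPT1A and ECHS1 probes is plotted for the 8 arrays before normalization between arrays, with EEDS in blue, helveticoside in red and a bar at the mean of the 10 spots. The ACOX2 spots at the upper doses lie apart from those of the controls, whereas the ECHS1 spots are higher than the control at all EEDS doses, by a median log2 of 0.68 at 20 µg/mL, on this scale.

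A dose trend was fitted to each gene as a slope per dose step (control, low, middle and top) in each series, with both series sharing 1 estimate of the spread about the lines. Since each dose had 1 array, the arrays about the lines stand in for replicates. The ACOX2 signal fell by 1.39 on the log2 scale per EEDS step (SE 0.32, limma adjusted p = 0.0441) and had a slope of -1.57 per helveticoside step (SE 0.32, limma adjusted p = 0.0400). The EEDS call was lost when any 1 array other than the helveticoside control or 3.75 nM array was left out, with adjusted p between 0.0249 and 0.239 over the 8 fits. The helveticoside call was lost when any array other than the helveticoside control was left out, with adjusted p between 0.0469 and 0.373.

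**Figure D2:**
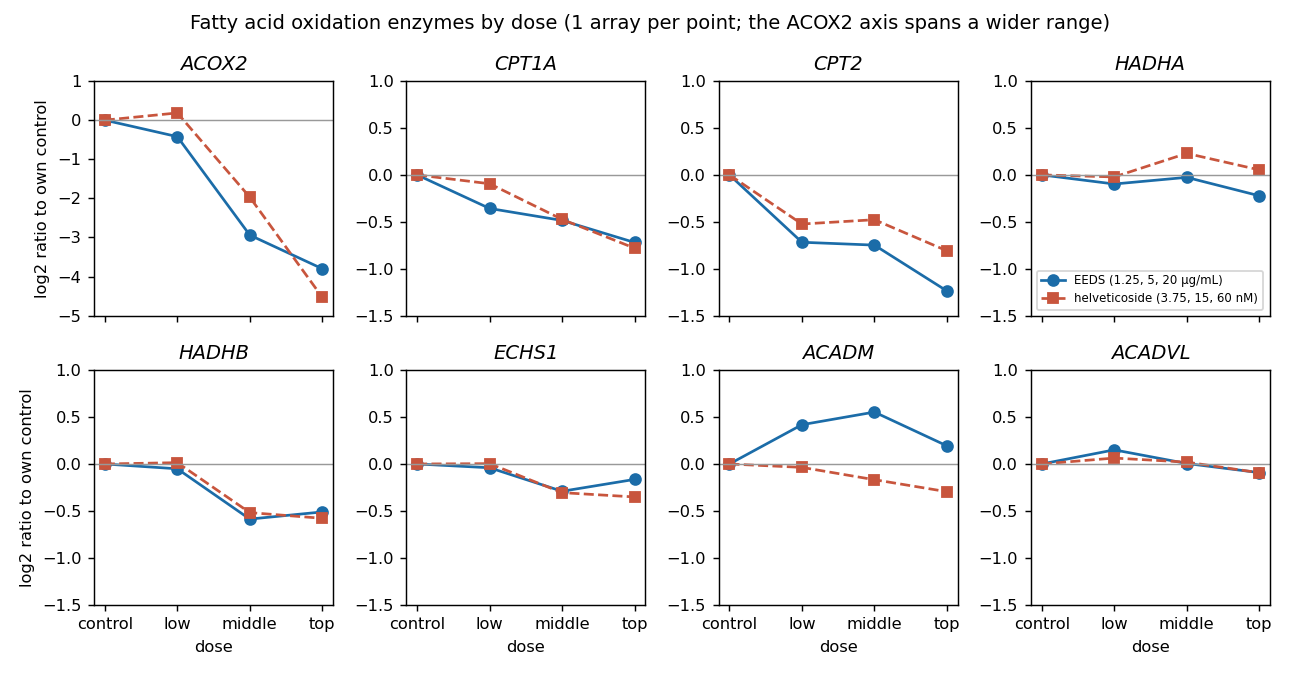
The log2 ratio to the control of the same series is plotted against dose for the 8 members well above background, with 1 array per point, EEDS as blue circles and helveticoside as red squares. ACOX2, on its wider axis, lies at -3.80 and -4.53 at the top doses, CPT1A and CPT2 lie below their controls at every dose, and ACADVL and HADHA stay within 0.23 of the control.

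CPT1A, the malonyl-CoA-sensitive gate of the carnitine shuttle, fell in small steps with both agents. Its normalized signal was 974, 761, 696 and 592 over the EEDS series and 1276, 1195, 919 and 743 over the helveticoside series. Every treated array was lower than its own control and lower than the dose before it. The ratio at the top dose was 1.65-fold lower for EEDS and 1.72-fold lower for helveticoside, and the 10 spots of the probe gave log2 ratios from -0.77 to -0.63 and from -0.87 to -0.67. The signal fell by 0.23 per EEDS step (SE 0.05, limma adjusted p = 0.0428) and by 0.27 per helveticoside step (SE 0.05, limma adjusted p = 0.0349). Neither call held when any 1 of the 8 arrays was left out (adjusted p 0.0510 to 0.282 and 0.0552 to 0.305), and of 11 other settings 4 kept the EEDS call and 5 the helveticoside call. Without normalization between arrays, the median of the 10 spots at 20 µg/mL EEDS was only 0.15 lower on the log2 scale.

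CPT2, the inner-membrane partner, was lower than its control at the lowest dose already, and fell with EEDS. Its normalized signal was 664, 404, 396 and 282 over the EEDS series and 738, 514, 530 and 422 over the helveticoside series. All 6 treated arrays lay below both controls, with a plateau between the low and the middle dose. At the top dose the signal was 2.36-fold lower for EEDS and 1.75-fold lower for helveticoside. The EEDS slope of -0.37 per step (SE 0.08) passed the test with a limma adjusted p of 0.0397, and the helveticoside slope of -0.24 (SE 0.08) did not, with a limma adjusted p of 0.127. The difference of the slopes was 0.14 (95% interval -0.16 to 0.43, limma adjusted p = 1), so these data do not separate the agents. The EEDS call remained when the 1.25 µg/mL array was left out and was lost without any other array (adjusted p 0.0477 to 0.294).

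The sequences upstream of CPT1A and CPT2 are shown because all 6 treated arrays lay below their own control for both carnitine acyltransferases. They are the 250 bases before each RefSeq start site in GRCh38.p14, 5′ to 3′ on the gene's strand, with the letters GGGCGG of the SP1 site, searched on both strands, in capitals.
CPT1A, chr11:68844278-68844527, minus strand: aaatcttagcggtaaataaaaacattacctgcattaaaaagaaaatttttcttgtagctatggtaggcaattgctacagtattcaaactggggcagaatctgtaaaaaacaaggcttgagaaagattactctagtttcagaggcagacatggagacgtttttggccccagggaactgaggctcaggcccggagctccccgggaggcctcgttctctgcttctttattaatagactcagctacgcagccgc
CPT2, chr1:53196574-53196823, plus strand: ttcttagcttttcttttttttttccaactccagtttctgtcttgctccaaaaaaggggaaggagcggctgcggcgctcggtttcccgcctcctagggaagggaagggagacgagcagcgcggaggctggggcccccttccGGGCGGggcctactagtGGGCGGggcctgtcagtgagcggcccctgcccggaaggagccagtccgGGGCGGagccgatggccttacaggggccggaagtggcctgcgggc
The CPT2 stretch has a G and C content of 65.2% and holds 3 such matches, and the CPT1A stretch has a content of 44.4% and holds none. The CPT1A stretch lies directly before the outermost end of the gene, and no stretch before any other CPT1A start was examined. Over all 35116 RefSeq promoter windows, each reaching from 250 bases before to 50 bases after a start site, 44.95% hold the SP1 letters. The peroxisome proliferator response element (AGGTCA repeated with 1 base between), the estrogen-related receptor element TCAAGGTCA, the NRF1 site (GCGCA and GCGC with 1 base between), the CCAAT box, the E-box CACGTG and the cAMP response element TGACGTCA had no match in the windows of any of the 8 members listed in that table. The shares of all windows with a match to these motifs, in the same order, are 0.02%, 0.35%, 5.78%, 34.61%, 7.26% and 1.85%. ACOX2 had no entry.

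Among the acyl-CoA dehydrogenases, ACADVL, whose substrates are very long chains, had the narrowest range of ratios among the 8 members. Its normalized signal was 19000, 21088, 19066 and 17829 over the EEDS series and 16693, 17438, 16925 and 15650 over the helveticoside series. The treated arrays lay within 0.15 of their own control on the log2 scale in both directions, and the slopes were -0.04 for EEDS (SE 0.04, limma adjusted p = 0.615) and -0.03 for helveticoside (SE 0.04, limma adjusted p = 0.754). With scaling to the 75th percentile, under which the median log2 ratio of all genes was -0.12 to -0.36 at the middle and top doses, both slopes turned positive, at 0.05 and 0.09.

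ACADM, the medium-chain dehydrogenase, lay above its control at every EEDS dose and below it at every helveticoside dose. Its normalized signal was 365, 488, 536 and 418 over the EEDS series and 572, 558, 510 and 466 over the helveticoside series. The groups overlapped, and the 2 controls themselves differed by 0.65 on the log2 scale, more than any treated array differed from its own control. Neither slope passed the test (0.07 for EEDS, SE 0.09, limma adjusted p = 0.686, and -0.10 for helveticoside, SE 0.09, limma adjusted p = 0.538). When each treated array was set against the control of the other series, the top-dose log2 ratio changed sign with both agents, from 0.19 to -0.45 for EEDS and from -0.30 to 0.35 for helveticoside. Agent and series cannot be told apart here.

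The ratios of the trifunctional protein's subunits lay apart at the middle and top doses. HADHB, the thiolase subunit, had normalized signals of 19138, 18469, 12740 and 13431 over the EEDS series and 17268, 17438, 12059 and 11562 over the helveticoside series. After normalization, both controls and both low doses lay above all 4 arrays of the middle and top doses. HADHA, which carries the hydratase and hydroxyacyl-CoA dehydrogenase activities, had 6299, 5890, 6186 and 5400 over the EEDS series and 4641, 4573, 5441 and 4818 over the helveticoside series, with no such gap. Before normalization between arrays, the HADHB signal was 16000 on the EEDS control and 20400 at 20 µg/mL. On the helveticoside arrays it was 13300 for the control and 11900 at 60 nM. The HADHB log2 ratio minus the HADHA log2 ratio was 0.05, -0.56 and -0.29 at the rising EEDS doses and 0.04, -0.75 and -0.63 at the rising helveticoside doses. This difference was seen after the values were known, rests on 1 spot per probe and array, and was not tested.

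As single genes, neither subunit passed the test. The HADHB slopes were -0.21 for EEDS (SE 0.07, limma adjusted p = 0.113) and -0.23 for helveticoside (SE 0.07, limma adjusted p = 0.106), and those of HADHA were -0.06 (SE 0.05, limma adjusted p = 0.525) and 0.04 (SE 0.05, limma adjusted p = 0.728). The HADHA slope with EEDS was 0.03 under scaling to the 75th percentile. Over other ways of processing, the HADHB slopes lay between -0.22 and -0.11 for EEDS and between -0.23 and -0.11 for helveticoside.

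HADHA and HADHB lie head to head on chromosome 2, and their RefSeq promoter windows overlap by 194 bases. The stretch before the HADHB start is shown, from GRCh38.p14, 5′ to 3′ on the HADHB strand, with matches to the SP1 letters (here as CCGCCC on this strand) in capitals. It shares 194 bases with the HADHA stretch, chr2:26244633-26244882, but leaves out the bases next to the HADHA start.
HADHB, chr2:26244689-26244938, plus strand: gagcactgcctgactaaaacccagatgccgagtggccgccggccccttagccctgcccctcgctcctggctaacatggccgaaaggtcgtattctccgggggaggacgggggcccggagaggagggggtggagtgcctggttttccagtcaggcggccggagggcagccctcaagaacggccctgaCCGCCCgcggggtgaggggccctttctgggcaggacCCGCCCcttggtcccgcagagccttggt
It holds 2 matches, and the stretch of the same length before HADHA holds 1 of them.

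ECHS1, the short-chain enoyl-CoA hydratase, had normalized signals of 13578, 13203, 11100 and 12116 over the EEDS series and 11215, 11243, 9075 and 8792 over the helveticoside series. All 10 spots were lower than the control at the middle and top doses of both agents after normalization, by a median log2 of -0.28 and -0.18 for EEDS and -0.31 and -0.35 for helveticoside. The slopes of -0.07 for EEDS (SE 0.05, limma adjusted p = 0.381) and -0.14 for helveticoside (SE 0.05, limma adjusted p = 0.144) did not pass the test. Under scaling to the 75th percentile the EEDS slope was 0.01.

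At 20 µg/mL EEDS, 2 members (ACOX2 and CPT2) were over 2-fold lower and none over 2-fold higher, beside 14.5% of all genes over 2-fold lower and 13.3% higher. At 60 nM helveticoside, 1 member (ACOX2) was over 2-fold lower, beside 12.8% of all genes, and none was higher, beside 10.8%. At the middle doses ACOX2 alone was over 2-fold lower, beside 8.47% of genes lower and 7.33% higher for EEDS and 8.06% and 7.08% for helveticoside. At the low doses no member was past 2-fold, beside 3.66% of genes lower and 4.22% higher for EEDS and 4.31% and 3.38% for helveticoside. Among the 8 members well above background, 7 had a ratio below 1 at each top dose, a count that was 4 for EEDS and 6 for helveticoside under scaling to the 75th percentile. Their median log2 ratio was -0.37 for EEDS and -0.46 for helveticoside, or -0.22 and -0.35 without ACOX2, beside 0.02 and -0.0039 over all genes tested. Under scaling to the 75th percentile the members' median was -0.13 for EEDS, above the -0.36 of all genes, and -0.28 for helveticoside, below their -0.18, so the place of the EEDS median relative to all genes turned with the scaling.

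By the limma fit, 3 members fell with the EEDS dose (ACOX2, CPT1A and CPT2), beside 7.85% of all genes falling, and 2 fell with the helveticoside dose (ACOX2 and CPT1A), beside 5.8%. No member rose, beside 7.27% and 5.48% of all genes. Over all genes, 4.69% fell with both agents. With each agent fitted alone on its 4 arrays, no member had a trend, although the adjusted p of ACOX2 was then 0.108 and 0.106. No member's slopes differed between the agents in limma's test of the difference, also at an unadjusted p of 0.05, and 0.0% of all genes passed the adjusted threshold and 2.76% an unadjusted p of 0.05. For ACOX2 the helveticoside slope minus the EEDS slope was -0.18 with a 95% interval from -1.32 to 0.96, and for CPT1A it was -0.04 with an interval from -0.23 to 0.14. Differences between the agents within these intervals were not detectable with 8 arrays.

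**Figure D3:**
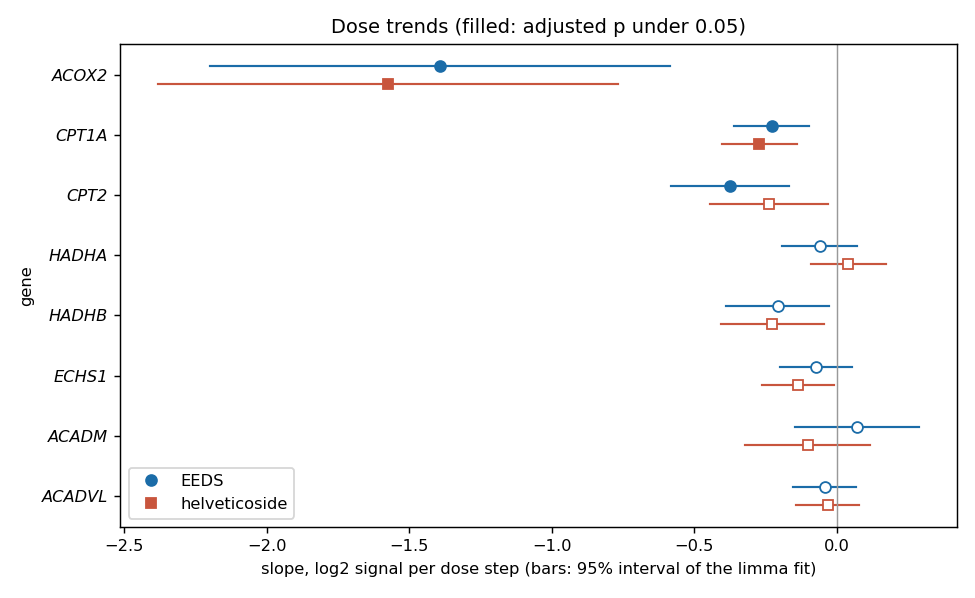
The slope of each member, in log2 signal per dose step, is plotted with its 95% interval from the limma fit, EEDS as blue circles and helveticoside as red squares, and filled symbols have an adjusted p under 0.05. The filled symbols are ACOX2 and CPT1A with both agents and CPT2 with EEDS, and the interval of ACOX2 is the widest.

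The other mitochondrial beta-oxidation enzymes gave 19 genes tested. With EEDS 4 fell, beside 7.85% of all genes, 1 rose, beside 7.27%, and 14 did not pass the test. With helveticoside 3 fell, beside 5.8% of all genes, and none rose, beside 5.48%. The median top-dose log2 ratio of the list was -0.52 for EEDS (-0.31 with the signal as scanned or the mean over probes). For helveticoside it was -0.21 (-0.11 under scaling to the 75th percentile and -0.36 against the other series' control). ACADSB, the dehydrogenase of short branched chains from isoleucine, had 952, 579, 331 and 183 over the EEDS series and 986, 630, 201 and 90.1 over the helveticoside series, the largest change of the list. It fell at every step with both agents (slopes -0.79 and -1.20, limma adjusted p = 0.0142 and 0.0165). ECHDC2, an enoyl-CoA hydratase domain protein, fell likewise (slopes -0.70 and -0.70, limma adjusted p = 0.0140 and 0.0173), as did DECR1, the reductase for unsaturated chains (slopes -0.40 and -0.33, limma adjusted p = 0.0192 and 0.0322).

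HADH, the hydroxyacyl-CoA dehydrogenase that follows ECHS1 on short chains, fell with EEDS (slope -0.42, limma adjusted p = 0.0335) and had a helveticoside slope of -0.37 with a limma adjusted p of 0.0534. ACAD9, a dehydrogenase that also helps to assemble respiratory complex I, had top-dose log2 ratios of -1.35 and -1.60 without passing the test. ACADS, the short-chain counterpart of ACADM, stood at -0.03 and -0.21. ECHDC3 was the single gene of this list that rose, with EEDS (slope 0.25, limma adjusted p = 0.0452). Its helveticoside slope was 0.06 (limma adjusted p = 0.575), and limma's test of the difference of slopes called no gene at an adjusted p under 0.05.

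**Figure D4:**
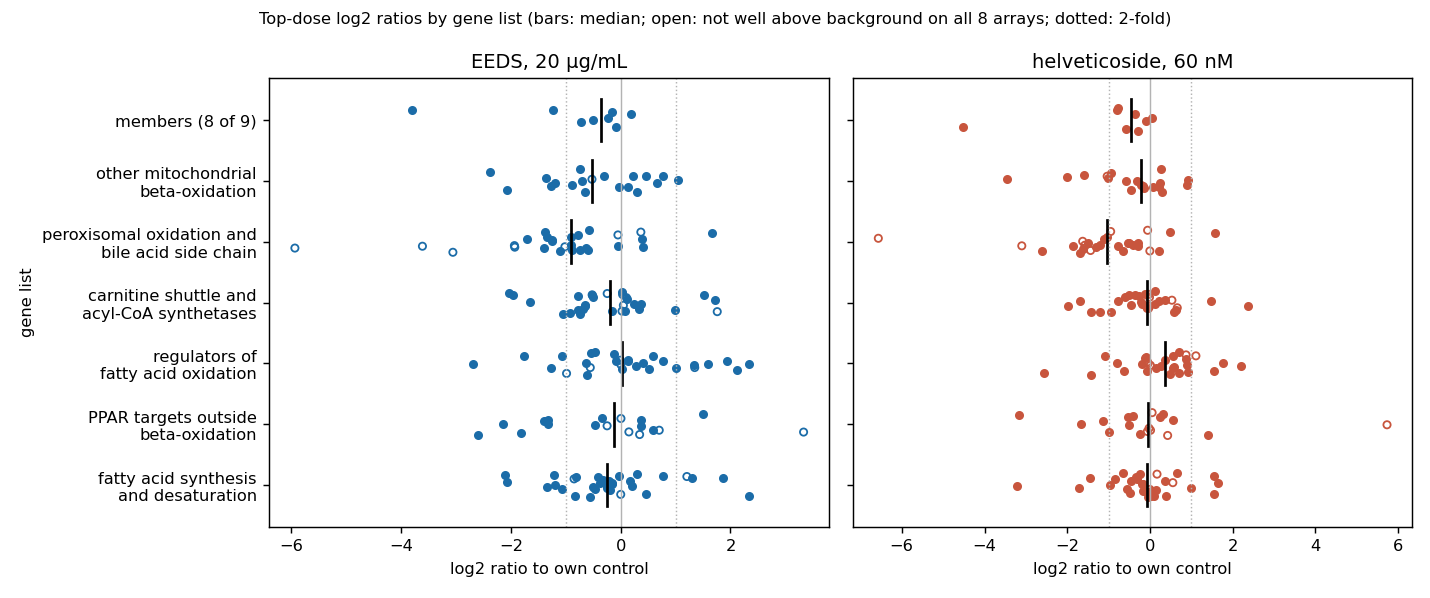
The log2 ratio to the control at 20 µg/mL EEDS (left) and 60 nM helveticoside (right) is plotted for each gene of the members and of the 6 gene lists, with a bar at the median, open circles for genes not well above background on all 8 arrays and dotted lines at 2-fold. The peroxisomal and bile acid list has its median at -0.91 and -1.04 over all 27 genes, open circles included.

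Of the 27 peroxisomal and bile acid side chain genes, 7 fell and 1 rose with EEDS, beside 7.85% and 7.27% of all genes. With helveticoside 8 fell and 1 rose, beside 5.8% and 5.48%. The median top-dose log2 ratio of the list was -0.91 for EEDS and -1.04 for helveticoside. It was -0.89 and -0.91 among the 21 and 20 genes well above background on both arrays. The helveticoside median of all 27 was -0.56 with the signal as scanned and -0.68 in the processed values that the authors deposited. Of the genes well above background, 8 were over 2-fold lower with EEDS and 10 with helveticoside, beside 15.9% and 13.0% of all genes meeting the same detection rule. ACOX2 hands its product to HSD17B4, the multifunctional protein that hydrates and dehydrogenates it. HSD17B4 had 2226, 1789, 804 and 680 over the EEDS series and 1859, 1765, 733 and 510 over the helveticoside series, with the same gap between low and middle doses as ACOX2. It fell with both agents (slopes -0.63 and -0.69, limma adjusted p = 0.0323 and 0.0318).

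AMACR, the racemase that supplies ACOX2 with the right stereoisomer, had 390, 238, 134 and 46.9 over the EEDS series, and on the helveticoside arrays 279, 214 and 136 before a 60 nM value that was not well above background. It fell with both agents (slopes -0.999 and -0.995, limma adjusted p = 0.0303 and 0.0357), and at 60 nM it was at least 6.27-fold lower. This bound sets the control against the lowest signal among probes well above background on the treated array. BAAT, which conjugates the finished bile acid to glycine or taurine, was at least 24.2-fold lower at 20 µg/mL EEDS and at least 16.6-fold lower at 60 nM. Its slopes had limma adjusted p of 0.0164 and 0.0186. The BAAT probe was not well above background at the middle and top doses of either agent, so these fits rest in part on undetected values. SLC27A5, the ligase that activates the bile acid, had top-dose log2 ratios of -1.10 and -1.31 without passing the test.

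SCP2, the thiolase at the end of the side chain route, had no value over 2-fold from its control by the brighter of its 2 probes. Its normalized signal was 1487, 2351, 2150 and 1434 over the EEDS series and 2286, 2420, 2148 and 1583 over the helveticoside series. Neither slope passed the test (limma adjusted p = 0.976 and 0.478). The other probe gave log2 ratios of 0.16 at 20 µg/mL EEDS and of -1.90 at 60 nM helveticoside, the last from arrays not both well above background. ACOX3, another oxidase of branched chains, had top-dose log2 ratios of -0.58 for EEDS and -0.29 for helveticoside and no dose trend.

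**Figure D5:**
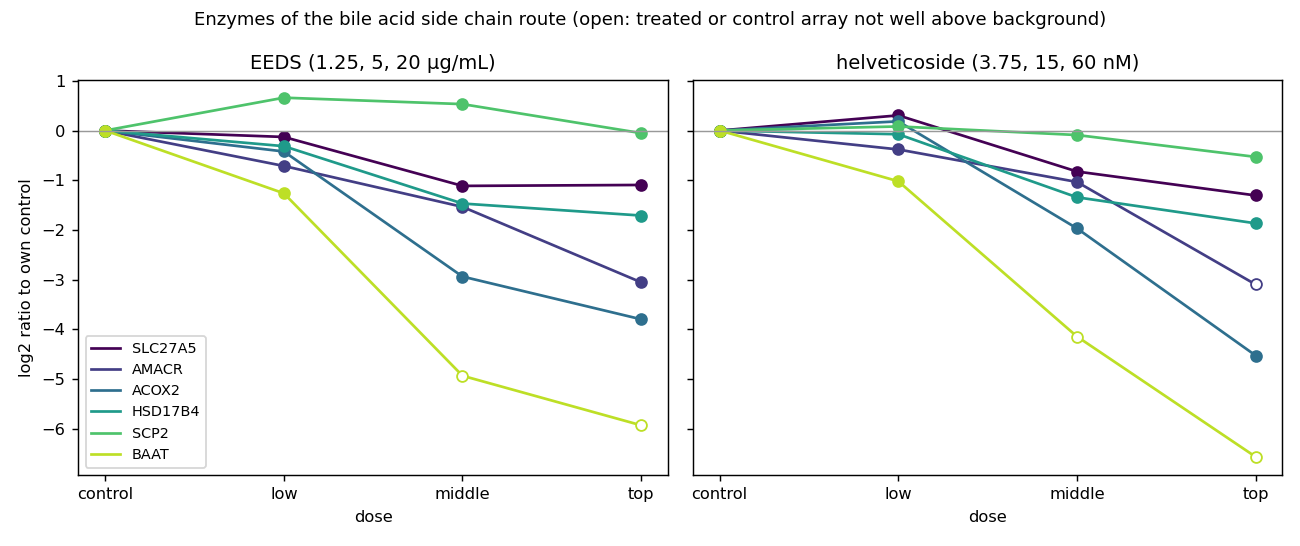
The log2 ratio to the control is plotted against dose for 6 enzymes of the bile acid side chain route, EEDS at the left and helveticoside at the right, with open symbols where one of the arrays compared missed the background call. At the middle and top doses BAAT, ACOX2, AMACR, HSD17B4 and SLC27A5 lie below 0 with both agents, whereas SCP2 lies at -0.05 and -0.53 at the top doses.

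Further genes of this list that fell with both agents included ACAA1, the straight-chain thiolase (slopes -0.48 and -0.52, limma adjusted p = 0.0317 and 0.0321), PECR, the trans-enoyl-CoA reductase (-0.48 and -0.56, 0.0301 and 0.0267), and ALDH3A2, the fatty aldehyde dehydrogenase (-0.40 and -0.37, 0.0206 and 0.0295). Catalase (CAT), which removes the hydrogen peroxide that the oxidases make, fell with helveticoside (slope -0.96, limma adjusted p = 0.0442) and had an EEDS slope of -0.54 with an adjusted p of 0.138. PEX13, of the import machinery, was the gene of this list that rose with both agents. Its signal was 1098, 1325, 1840 and 3502 over the EEDS series and 887, 994, 1463 and 2657 over the helveticoside series (limma adjusted p = 0.0268 and 0.0335).

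The list of the carnitine shuttle and acyl-CoA synthetases gave 30 genes tested. With EEDS 4 fell and 1 rose, beside 7.85% and 7.27% of all genes. With helveticoside 3 fell and 1 rose, beside 5.8% and 5.48%. The median top-dose log2 ratios of the list were -0.20 and -0.06. These medians were -0.51 and -0.21 over the 23 genes that made the background call on each array, and -0.40 and -0.29 under scaling to the 75th percentile. The riser was SLC22A5, the plasma membrane carnitine transporter. Its signal was 1568, 2463, 4694 and 5191 over the EEDS series and 1185, 1433, 3436 and 6144 over the helveticoside series, opposite in direction to CPT1A and CPT2 (slopes 0.61 and 0.84, limma adjusted p = 0.0265 and 0.0198). FABP5, a fatty acid binding protein, fell with both (slopes -0.54 and -0.61, limma adjusted p = 0.0201 and 0.0212), and SLC27A2, a very long chain acyl-CoA synthetase that also transports fatty acids, fell with both (-0.67 and -0.54, 0.0178 and 0.0306).

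SLC27A1, a fatty acid transporter, fell with both by the brighter of its 2 probes, with top-dose log2 ratios of -2.04 and -1.98, but the other probe gave 0.26 and 0.05. ACSL3, an acyl-CoA synthetase, fell with EEDS (slope -0.33, limma adjusted p = 0.0411). Of the further carnitine palmitoyltransferases, CPT1C stood at -0.50 and -0.61 at the top doses with no trend, and CPT1B, the muscle form, went from 77.2 on the EEDS control to 327, 253 and 261 with no dose trend (limma adjusted p = 0.241). SLC25A20, which exchanges acylcarnitine across the inner membrane between CPT1A and CPT2, stood at 0.37 with each agent, with no trend.

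Among 29 regulators of fatty acid oxidation, 4 rose and 3 fell with EEDS, beside 7.27% and 7.85% of all genes. With helveticoside 3 rose and 2 fell, beside 5.48% and 5.8%. The median top-dose log2 ratios of the list were 0.03 for EEDS (-0.0013 in the processed values that the authors deposited) and 0.37 for helveticoside. Against the other series' control they were 0.26 and 0.26, so the gap between the agents depended on the control. ACACB makes the malonyl-CoA that inhibits CPT1A at the outer mitochondrial membrane. Its signal was 942, 619, 301 and 146 over the EEDS series and 858, 573, 330 and 145 over the helveticoside series, and it fell with both (slopes -0.91 and -0.85, limma adjusted p = 0.0132 and 0.0165). A second ACACB probe was not well above background and gave log2 ratios of opposite sign at the 2 top doses. PRKAB1 and PRKAG2, subunits of the AMP-activated kinase that phosphorylates acetyl-CoA carboxylase, rose with both (slopes 0.78 and 0.74, limma adjusted p = 0.0140 and 0.0179, and slopes 0.67 and 0.58, limma adjusted p = 0.0272 and 0.0421).

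PRKAB2, another subunit of the same kinase, had top-dose log2 ratios of 2.12 and 1.76 without passing the test. Of the sirtuin deacetylases, nuclear SIRT1 rose with both (slopes 0.42 and 0.31, limma adjusted p = 0.0216 and 0.0468) and mitochondrial SIRT3 fell with both (slopes -0.57 and -0.49, limma adjusted p = 0.0269 and 0.0426). PPARA, the nuclear receptor that drives beta-oxidation genes in liver, had low signals of 61.8 to 119 and no trend with either agent.

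Among 18 PPAR target genes outside beta-oxidation, 3 fell and 1 rose with EEDS, beside 7.85% and 7.27% of all genes. With helveticoside 2 fell and 1 rose, beside 5.8% and 5.48%. The median top-dose log2 ratios of the list were -0.12 and -0.04. These medians were -0.90 and -0.45 over the 12 genes that made the background call on each array, and -0.56 and -0.30 under scaling to the 75th percentile. PDK2, a kinase that restrains pyruvate dehydrogenase, fell with both (slopes -0.69 and -0.58, limma adjusted p = 0.0132 and 0.0185), as did LIPE, the hormone-sensitive lipase (-0.44 and -0.34, 0.0149 and 0.0273), while PDK4 fell with EEDS (-0.46, 0.0345). UCP2, an uncoupling protein, had top-dose log2 ratios of -2.59 and -3.18, and UCP3 of -1.81 and -0.40, without passing the test. TXNIP, the thioredoxin-interacting protein, rose with both (limma adjusted p = 0.0481 and 0.0231), from 34.4 on the EEDS control to 346 at 20 µg/mL and to at least 11.2-fold higher at 60 nM than a control that was not well above background.

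For fatty acid synthesis and desaturation, 32 genes were tested. With EEDS 3 rose and none fell by the trend test, beside 7.27% and 7.85% of all genes. With helveticoside 1 rose and none fell, beside 5.48% and 5.8%. The median top-dose log2 ratios of the list were -0.25 and -0.06. Against the other series' control they were -0.01 and -0.61, so the order of the agents depended on the control. ELOVL1, an elongase of very long chains, rose with both (slopes 0.44 and 0.52, limma adjusted p = 0.0144 and 0.0165). The elongation enzymes ELOVL7 and HACD2 rose with EEDS (slopes 0.61 and 0.75, limma adjusted p = 0.0331 and 0.0243) and had helveticoside slopes of 0.53 and 0.57 with limma adjusted p of 0.0531 and 0.0506. CBR4 and OXSM, of mitochondrial fatty acid synthesis, had top-dose log2 ratios of -2.11 and -3.21 and of -2.08 and -1.72, with no call. At 20 µg/mL EEDS 6 genes of the list were over 2-fold lower and 4 higher, beside 14.5% and 13.3% of all genes. At 60 nM helveticoside 3 were over 2-fold lower and 3 higher, beside 12.8% and 10.8%. FASN, ACLY and FADS2 stood at -1.34, -1.21 and -1.07 with EEDS and at -0.97, -0.54 and -0.65 with helveticoside, with no call.

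Over the 6 log2 ratios of treated arrays to their own controls, the 3 genes most like ACOX2 among 11497 well above background on all arrays were PGD, a dehydrogenase of the pentose phosphate pathway, NOTCH2, a receptor of Notch signaling, and SYT12, a synaptotagmin (Pearson r 0.999 for each). The PGD ratios were -0.33, -1.43 and -1.89 for EEDS and -0.13, -1.11 and -2.21 for helveticoside, so the order of the arrays was close to that of ACOX2 at a smaller size. The 3 most like CPT2 were ASTE1, ARSA and GUSB (r 0.999, 0.998 and 0.998). With ASTE1 the likeness was in shape only, since its ratios were 0.19, 0.25 and -0.06 for helveticoside where those of CPT2 were -0.52, -0.48 and -0.81. With 6 points that share controls and doses, such values describe these arrays.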

How the data were processed

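The authors hybridized pooled RNA to single-dye Agilent arrays and deposited each spot's intensity as written by the scanner software, along with a table of processed intensity values, which holds median signal minus local background, quantile-normalized within each series. RNA had an integrity number above 7.0. Spots called outliers were dropped, the processed signals of a probe's spots were averaged, quantile normalization was applied over the 8 arrays, and log2 was taken. A value under 1.4 times its local background was set to at least the lowest detected signal of its array. Probes were matched to RefSeq names (GRCh38.p14), and the brightest probe stood for a gene. Of 19056 genes 19046 passed the filter (1.4 times background on at least 1 array of each series). Dose trends came from limma 3.58.1 (R 4.3.3, statmod 1.5.0, trend and robust) with one line (level and slope) fitted to each series, 4 residual degrees of freedom, Benjamini-Hochberg over all genes and a threshold of 0.05. The script was tested on simulated data. Alternatives were other background corrections, scalings, filters, probe rules, dose codings, controls, fold thresholds and fits, and leaving out each array. Tables were made with Python 3.11.15, pandas 2.3.3, numpy 2.4.6 and scipy 1.17.1.

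Genes named are the 9 members, the 4 largest top-dose changes and up to 2 further trends per agent in each list, the 3 genes most like a member over 2-fold changed, and neighbours by function. PEX13, PPARA, SLC25A20, FASN, ACLY and FADS2 were named besides. The values of some list genes are left out here. The members and lists were chosen with earlier results of these data known. Arrays were few, and their number limits the precision. No batch but the series could be examined.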

Additional observations from a re-analysis of the deposited data

Results flagged for a closer look

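The ACADM slopes had opposite signs with the 2 agents. All 3 EEDS arrays lay above the EEDS control and all 3 helveticoside arrays below the helveticoside control, which set this result apart. The helveticoside slope minus the EEDS slope was -0.173 (95% interval -0.48 to 0.14), and limma's test of the difference gave an adjusted p of 1. The ACADM signal of the 2 controls differed by 0.65 on the log2 scale, and the SD of that difference over all genes tested was 0.65.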

How the results depend on the processing

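No paired analysis was possible because each group had 1 array and the labels give no shared replicate numbers. Of 304 slopes of the 8 members recomputed under other settings, 241 kept direction and side of the threshold, 55 kept direction but lost the call and 8 changed sign. The sign changes were ACADM with EEDS (dose-proportional coding -0.0384, and -0.113 to 0.277 with an array left out, the lowest without the control), ACADVL with EEDS (75th percentile scaling 0.0545, and -0.121 to 0.0025 with an array left out, the highest without the 20 µg/mL array) and with helveticoside (0.0945, and -0.0780 to 0.0100, the highest without the 60 nM array), and, under 75th percentile scaling, HADHA and ECHS1 with EEDS (0.0331 and 0.0133). None of these slopes was a call, and the cause was not tested. Members with an EEDS trend (3) numbered 0 with dose-proportional coding and 0 with each agent alone, and 0 to 1 when arrays were left out in turn. As scanned, after normexp, under 75th percentile scaling and in the deposited processed values, only ACOX2 and CPT2 kept the EEDS call. The same held among genes well above background on all arrays. Members with a helveticoside trend (2) numbered 1 as scanned, after normexp, under 75th percentile scaling and in the processed values the authors deposited, 0 with dose-proportional coding and 0 alone, and 0 to 1 with an array left out. Of the 155 pathway genes tested, 32 had a trend with EEDS, beside 7.85% of all genes falling and 7.27% rising. This count was 56 in the deposited processed values, 20 dose-proportional, 0 alone and 0 to 31 with an array left out. With helveticoside 25 had a trend, beside 5.8% of all genes falling and 5.48% rising. This count was 39 among genes well above background on all arrays, 6 dose-proportional, 0 alone and 0 to 17 with an array left out. The shares of all genes called under these other settings are not given here for either agent. The changes in the member and pathway counts therefore cannot be told from a general change in the number of calls. At a threshold of 1.5-fold instead of 2-fold, members numbered 1 instead of 0 at 1.25 µg/mL and 3 instead of 1 at 5 µg/mL. They numbered 3 instead of 2 at 20 µg/mL and 3 instead of 1 at 60 nM. All were lower, beside 11.3%, 17%, 23.2% and 20.3% of all genes lower at these doses in turn. Of the 155 pathway genes, 88 instead of 56 were past the threshold in either direction for EEDS and 69 instead of 44 for helveticoside. Over all genes, 23.2% were over 1.5-fold lower and 23.1% higher at 20 µg/mL, and 20.3% and 20.5% at 60 nM. Fewer arrays leave fewer residual degrees of freedom, and the part of this in the lost calls was not tested. Signal over background limits ACADL on all arrays and ACOX2 at 60 nM.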
